A study of Mus musculus with 14 samples.

Results

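The endoplasmic reticulum (ER) stress genes described here were 10 genes listed for the ATF6 and XBP1 branches of the unfolded protein response, out of 35275 genes in the deposited table. They were Ern1 and Xbp1 (the sensor and its transcription factor), Hspa5, Hsp90b1, Calr, Dnajb9 and Sdf2l1 (chaperones and co-chaperones), Pdia4 (a disulfide isomerase) and Herpud1 and Edem1 (ER-associated degradation). All 10 were found by symbol, and all 10 were among the 13079 genes that passed the filter on low values. They were followed over 4 groups of mice to ask whether ER stress genes moved with the ATF4 response. RNA-seq was done on brown adipose tissue of C57BL/6 mice, 8 weeks old per the series' design text, with 14 animals as separate samples. Every animal was homozygous for floxed Lrpprc (genotype LrpprcFF). The controls carried no Cre, and the knockouts were LrpprcFF Ucp1-Cre, in which the Ucp1 promoter drives the recombinase in brown adipocytes. The 22 °C cohort (room temperature) held 4 animals of each genotype, and the 30 °C cohort (thermoneutrality) held 3 of each. The cell type label reads brown adipocytes, but RNA came from homogenized tissue with no isolation step given, so cells that keep Lrpprc are part of each sample. For the same reason fewer cells of a type and less RNA per cell cannot be told apart.

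LRPPRC is a mitochondrial protein that stabilises transcripts of the mitochondrial genome. Faulty mitochondria and a stressed ER can both lead to phosphorylation of eIF2α and to translation of ATF4, so a rise of ATF4 target genes does not by itself name the compartment. The ER also has sensors that report on its own folding load. IRE1α, encoded by Ern1, cuts the Xbp1 mRNA so that it yields an active transcription factor, and ATF6 is cleaved in the Golgi to release its own. Both factors bind ER stress response elements in the promoters of chaperone and degradation genes, and Hspa5 (BiP) is the classic readout. Brown adipocytes are known for a large heat-producing mitochondrial mass and for Ucp1.

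The promoters of 7 of the genes are shown because each either holds an element of the ER stress response or belongs to a gene that passed the test in the knockout. Sequences are from RefSeq (GRCm38.p6), 250 bases before the annotated start site, 5′ to 3′ on the gene's strand, with matched elements in capitals. All 10 genes had an entry. The search covered those bases and the 50 after the start site, on both strands, for the ER stress response element (ERSE: CCAAT and CCACG with any 9 bases between them), ERSE-II (ATTGG and CCACG with any 1 base between them), the core of the unfolded protein response element (TGACGTGG) and 2 overlapping forms of an ATF4 element (TGATGCAAT and TTGCATCA). Of 32851 RefSeq windows of the same length, 0.119% held an ERSE, 0.0365% an ERSE-II, 0.676% the unfolded protein response core, 0.192% the longer ATF4 form and 0.895% the shorter one. The first 4 promoters held a match. They were Hspa5 (chr2:34771840-34772089, plus strand), Hsp90b1 (chr10:86705445-86705694, minus strand), Calr (chr8:84846932-84847181, minus strand) and Herpud1 (chr8:94386179-94386428, plus strand).
Hspa5: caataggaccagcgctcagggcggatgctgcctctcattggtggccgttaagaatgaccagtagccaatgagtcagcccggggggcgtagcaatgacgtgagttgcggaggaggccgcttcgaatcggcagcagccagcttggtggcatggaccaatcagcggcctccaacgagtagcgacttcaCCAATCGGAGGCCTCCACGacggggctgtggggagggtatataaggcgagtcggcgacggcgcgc
Hsp90b1: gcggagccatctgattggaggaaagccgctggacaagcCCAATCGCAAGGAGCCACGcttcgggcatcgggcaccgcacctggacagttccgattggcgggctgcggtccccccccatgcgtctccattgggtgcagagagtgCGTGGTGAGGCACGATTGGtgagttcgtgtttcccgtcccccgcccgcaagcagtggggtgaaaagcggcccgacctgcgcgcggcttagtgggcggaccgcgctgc
Calr: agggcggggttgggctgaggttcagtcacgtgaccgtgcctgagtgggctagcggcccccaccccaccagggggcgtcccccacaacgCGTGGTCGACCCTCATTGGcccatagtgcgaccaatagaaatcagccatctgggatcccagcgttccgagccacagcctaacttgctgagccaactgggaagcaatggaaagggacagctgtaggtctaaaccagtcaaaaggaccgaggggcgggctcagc
Herpud1: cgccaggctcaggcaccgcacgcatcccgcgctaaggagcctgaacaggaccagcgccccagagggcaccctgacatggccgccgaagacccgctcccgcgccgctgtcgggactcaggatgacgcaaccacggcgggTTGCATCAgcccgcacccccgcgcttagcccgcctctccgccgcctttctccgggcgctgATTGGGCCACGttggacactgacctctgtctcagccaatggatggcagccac

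Hspa5 held 1 ERSE, 65 to 47 bases before the start site, and Hsp90b1 held 2, at 212 to 194 and, on the other strand, 107 to 89 bases before it. Calr held 1 on the other strand, 162 to 144 bases before the start. Herpud1 had no ERSE but held an ERSE-II 52 to 42 bases before the start and the short ATF4 form 112 to 105 bases before it. The next 3 promoters belong to the genes that rose in the knockout and held none of these letters: Ern1 (chr11:106487797-106488046, minus strand), Sdf2l1 (chr16:17132384-17132633, minus strand) and Edem1 (chr6:108828391-108828640, plus strand). Xbp1, Dnajb9 and Pdia4 also had no match. A match is a run of letters and not a measured binding site, and a window without one says nothing about the factor.
Ern1: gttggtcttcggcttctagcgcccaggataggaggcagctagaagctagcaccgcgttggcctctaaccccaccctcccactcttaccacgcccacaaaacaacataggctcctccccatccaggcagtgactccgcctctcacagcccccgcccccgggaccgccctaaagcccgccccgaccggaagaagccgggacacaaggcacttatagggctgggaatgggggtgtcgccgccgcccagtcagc
Sdf2l1: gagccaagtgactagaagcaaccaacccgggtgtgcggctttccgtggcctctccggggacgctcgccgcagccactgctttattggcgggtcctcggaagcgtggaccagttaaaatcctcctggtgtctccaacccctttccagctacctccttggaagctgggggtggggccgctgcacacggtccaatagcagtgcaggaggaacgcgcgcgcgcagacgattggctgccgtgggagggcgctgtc
Edem1: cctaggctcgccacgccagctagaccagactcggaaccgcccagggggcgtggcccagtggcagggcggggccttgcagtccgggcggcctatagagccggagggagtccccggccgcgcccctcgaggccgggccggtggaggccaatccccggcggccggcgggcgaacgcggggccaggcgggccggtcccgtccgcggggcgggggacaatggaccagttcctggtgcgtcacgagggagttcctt

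**Figure D1:**
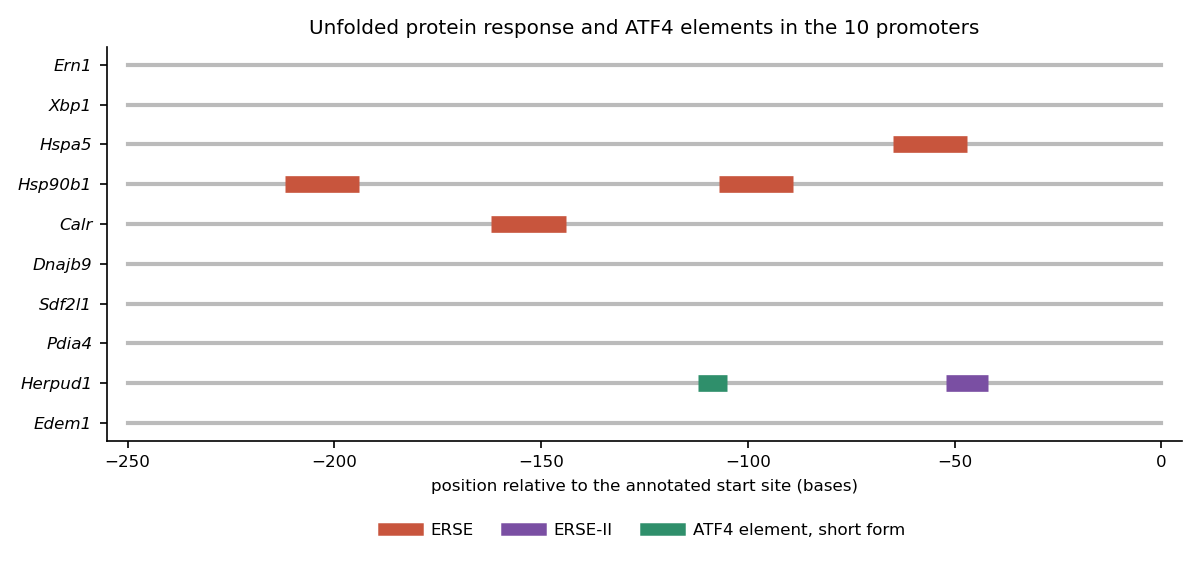
Position of matched elements in the 250 bases before the start site of each gene. The horizontal axis is the distance from the annotated start site in bases, and each grey line is one promoter. Coloured blocks are the ERSE of Hspa5, Hsp90b1 and Calr and the ERSE-II and ATF4 element of Herpud1; the other 6 promoters are empty.

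The authors' values are FPKM, in which the fragments of a gene are divided by its length and by the depth of the library. They were multiplied by one factor per library so that the typical nuclear gene had the same level everywhere, and these scaled FPKM are printed below. Depth, recovered from the spacing of low values, was 15.8 to 21.3 M fragments per library. With the longest annotated transcript taken as the length of a gene, Ern1 then rested on an estimated 280 to 2090 fragments per library. Sdf2l1, the scarcest at 22 °C, rested on 29.9 to 754. The lengths behind the authors' values are not known, so these numbers are approximate. Lrpprc itself was at 24.6 to 60.6 in the 22 °C controls and 9.05 to 11.3 in the 22 °C knockouts, and at 29.5 to 31.9 against 4.75 to 8.08 at 30 °C. Its log2 change was -1.86 (limma, adjusted p = 0.000646) at 22 °C and -2.10 (limma, adjusted p = 0.000454) at 30 °C. Brown adipocyte markers were abundant in every group, with Ucp1 at 249 to 3527. Control replicates 3 and 4 at 22 °C carry identifiers that begin with R, unlike all other animals, and stood apart for several of the genes, as given below.

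In the controls at 22 °C the genes spanned a wide range per unit length. Hspa5 (132 ± 30.7, SD, n = 4) and Calr (120 ± 25.6) were highest, with overlapping ranges, and Herpud1 followed at 66.3 ± 6.41. Hsp90b1 (47.2 ± 11.4), Xbp1 (33.6 ± 6.94) and Dnajb9 (27.3 ± 6.26) came next, each overlapping its neighbour in that order. Pdia4 (15 ± 1.63) and Edem1 (13.6 ± 3.03) also overlapped each other, and Ern1 (3.05 ± 0.233) and Sdf2l1 (2.05 ± 0.605) were lowest with overlapping ranges. The ATPase chaperone BiP and the lectin chaperone calreticulin were thus the most abundant of the set, and the IRE1α sensor was among the least.

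The knockouts had higher Ern1, Edem1 and Sdf2l1, while the abundant chaperones, Xbp1 and Herpud1 did not pass the test at either temperature with the scaling used here. At 22 °C 1 of the 10 genes rose (Ern1) and none fell, against 1.71% of all tested genes called in either direction. At 30 °C 3 rose (Ern1, Sdf2l1 and Edem1) and none fell, against a background of 13%. With both temperatures averaged the same 3 rose, against 17.2%. A call is an adjusted p under 0.05 in limma, with Benjamini-Hochberg adjustment over all tested genes, and all changes are on the log2(scaled FPKM + 1) scale, which understates changes of low genes. The knockout and control ranges did not overlap for 3 of the 10 genes at 22 °C (8.82% of all genes) and for 6 at 30 °C (36.1% of all genes). The median change of the 10 was 0.21 at 22 °C and 0.26 at 30 °C, beside 0.01 and 0.02 over all genes. The counts depended on the scaling: for FPKM as deposited, where the median of all genes moved by 0.24 at 22 °C, 0.31 at 30 °C and 0.28 in the average, 7, 7 and 9 of the 10 genes passed, and at equal totals over nuclear genes (median shifts of 0.12, 0.19 and 0.16) 2, 4 and 7 did.

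**Figure D2:**
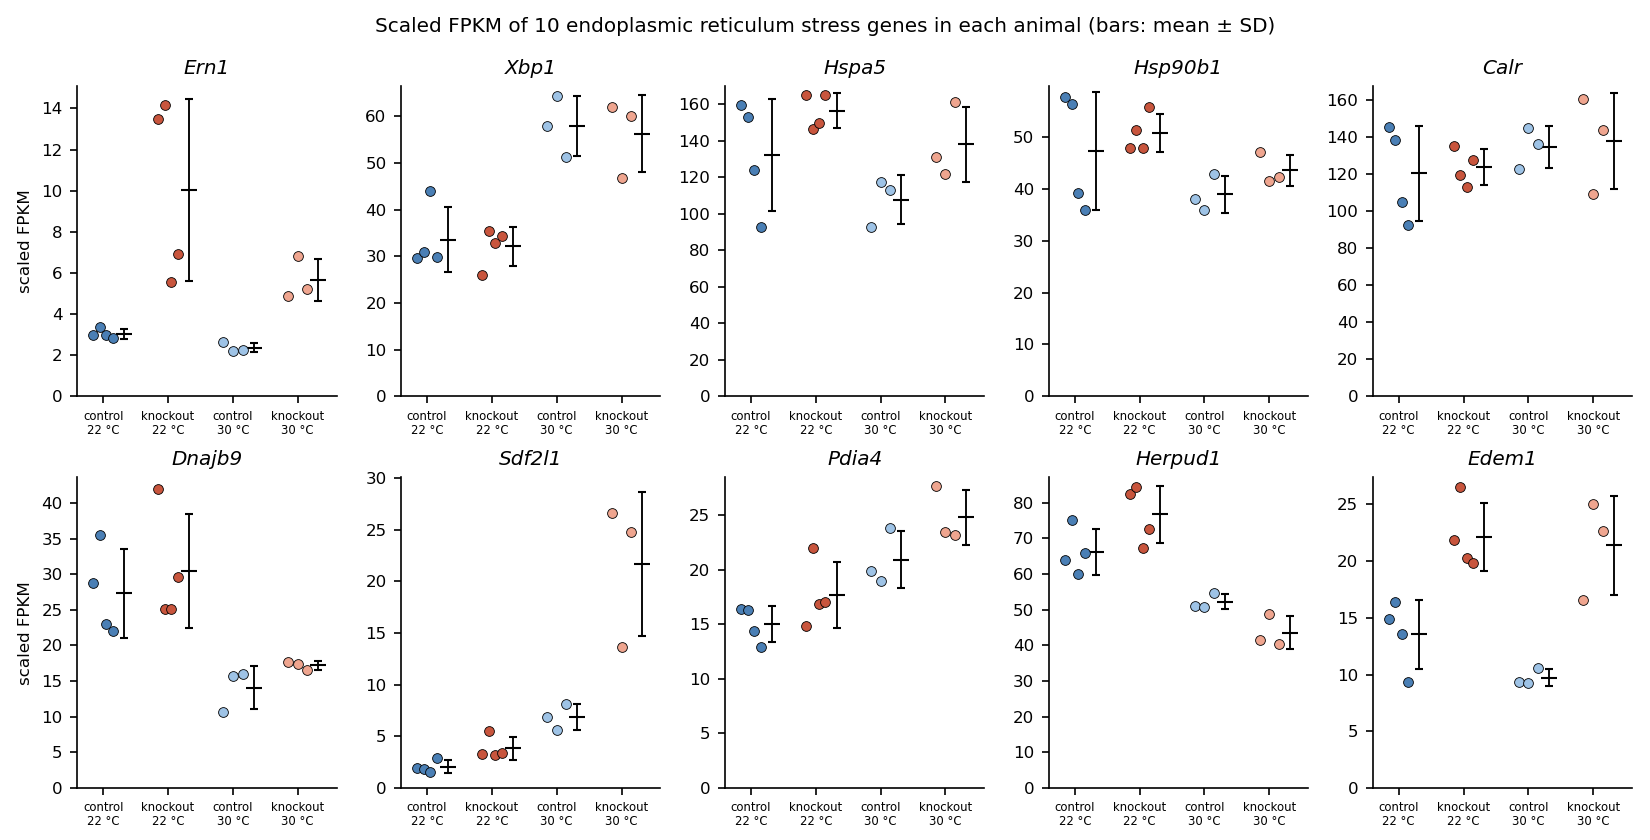
Scaled FPKM (vertical axis, from 0) of each gene in every animal, by group (horizontal axis); points are animals and bars the mean ± SD (n = 4 at 22 °C, n = 3 at 30 °C). Ern1 and Edem1 lie above their controls in all knockouts at both temperatures, and the Hspa5, Hsp90b1 and Calr points of the 22 °C controls spread widely.

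Ern1 (ENSMUSG00000020715) encodes the ER membrane kinase and endoribonuclease that senses unfolded protein. At 22 °C it was at 2.97, 3.38, 2.999 and 2.84 in the controls and at 13.5, 14.2, 5.59 and 6.92 in the knockouts. The 2 groups were separate, and knockout replicates 1 and 2 were well above replicates 3 and 4. At 30 °C the controls were at 2.64, 2.21 and 2.27 and the knockouts at 4.89, 6.81 and 5.25, again separate. The change was 1.36 (SE 0.23, 2.56-fold) at 22 °C, with limma adjusted p = 0.00958, and 0.97 (SE 0.26, 1.96-fold) at 30 °C, with limma adjusted p = 0.0273. Averaged over temperature it was 1.16 (SE 0.17), with limma adjusted p = 0.00105. The call at 30 °C was lost in 6 of 6 fits that each left out 1 animal (adjusted p 0.0582 to 0.0901) and without the filter on low values (adjusted p = 0.0544), and that at 22 °C when only the compared groups entered the fit (adjusted p = 0.0604).

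Xbp1 (ENSMUSG00000020484) encodes the transcription factor whose mRNA IRE1α splices. Its gene level was 29.7, 30.8, 43.9 and 29.8 in the 22 °C controls and 26.01, 35.3, 32.9 and 34.3 in the 22 °C knockouts. The 30 °C values were higher, 57.9, 64.2 and 51.3 in controls and 61.9, 46.8 and 60.0 in knockouts. The groups overlapped at both temperatures, and the changes were -0.05 (95% interval -0.37 to 0.27) and -0.04 (-0.41 to 0.32). A value per gene does not separate spliced from unspliced Xbp1 mRNA, so IRE1α activity was not measured. Transcripts known to be cut by IRE1α under stress were also followed: of 5 tested (Bloc1s1, Scara3, Sparc, Col6a1 and Hgsnat) none was called at 22 °C, with 0 at an unadjusted p under 0.05, and at 30 °C 1 was, Col6a1, which rose by 0.70 (SE 0.16). The background at 30 °C was 13% of all tested genes. Col6a1 is a collagen chain, and fibroblast markers were also higher in the 30 °C knockouts, as given below.

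The 3 abundant chaperones and the HSP40 co-chaperone did not pass the test with the scaling used here, and several passed with others. Hspa5 (ENSMUSG00000026864), BiP, was at 159.5, 153, 124 and 92.6 in the 22 °C controls and 164.9, 147, 149.7 and 164.9 in the knockouts. The 30 °C values were 92.6, 118 and 113 in controls and 131, 122 and 161 in knockouts, where the groups did not overlap. The change was 0.27 (95% interval -0.07 to 0.61) at 22 °C and 0.35 (-0.05 to 0.75) at 30 °C, with limma adjusted p of 0.45 and 0.244. Averaged over temperature it was 0.31 (0.05 to 0.57), a 1.24-fold change with limma adjusted p = 0.0985. At 30 °C it passed after quantile normalization (0.51, adjusted p = 0.0396), at equal totals over nuclear genes (0.56, 0.0301) and for FPKM as deposited (0.70, 0.00441). The average passed with the same scalings: 0.46 (adjusted p = 0.00838) after quantile normalization, 0.48 (0.00624) at equal totals over nuclear genes and 0.63 (0.00043) for FPKM as deposited, which is 0.36 relative to the shift of all genes. The averaged change of Hspa5 without the 2 controls with R identifiers was 0.17 (limma adjusted p = 0.201).

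The wide spread of Hspa5 in the 22 °C controls followed the identifiers of the animals. Both controls with R identifiers lay below both other 22 °C controls for Hspa5, Hsp90b1, Dnajb9, Pdia4, Calr and Edem1, 6 of the 10 genes. The same share over all tested genes was not counted, so this is not shown to be particular to the 10 genes. Without the 2 controls with R identifiers the 22 °C change of Hspa5 was -0.002 (limma adjusted p = 0.994). That of Hsp90b1 was -0.17, Calr -0.20 and Dnajb9 -0.10. For Edem1, at 0.69 in the main fit, 17 alternatives, this one among them, ran from 0.47 to 0.96. For Pdia4, at 0.22, they ran from 0.095 to 0.49. In the 2 R controls Edem1 was at 13.5 and 9.37, against 14.9 and 16.4 in the others. Lrpprc was also lower in these 2 animals, at 36.4 and 24.6 against 60.6 and 52.8, and the summed skeletal muscle markers were higher, at 6274 and 3677 against 562 and 430. The part of these differences in the result was not tested, and the labels do not say what the letter stands for.

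Hsp90b1 (ENSMUSG00000020048), the ER HSP90 GRP94, was at 57.6, 56.4, 39.1 and 35.9 in the 22 °C controls and 47.9, 51.2, 47.9 and 55.7 in the knockouts. Values at 30 °C were 38.1, 35.8 and 42.9 in controls and 47.0, 41.4 and 42.3 in knockouts. The groups overlapped at both temperatures, with changes of 0.13 (95% interval -0.18 to 0.44) and 0.16 (-0.20 to 0.52). The average of 0.14 passed at equal totals over nuclear genes (0.31, limma adjusted p = 0.0383) and for FPKM as deposited (0.46, 0.0013). Its exons overlap 3 annotated genes in GENCODE M21, 1 of them on the opposite strand, whose levels reached at most 4.35 FPKM, and the use of strand in counting is not given in the sources used here.

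Calr (ENSMUSG00000003814), calreticulin, a calcium-binding lectin chaperone, was at 145, 138, 105 and 92.6 in the 22 °C controls and 135, 119.5, 113 and 127.5 in the knockouts. Values at 30 °C were 122, 145 and 136 in controls and 160.2, 109 and 144 in knockouts. It showed the smallest changes of the chaperones, 0.06 (95% interval -0.27 to 0.39) and 0.02 (-0.36 to 0.40), with overlapping groups. Its average of 0.04 passed for FPKM as deposited (0.36, limma adjusted p = 0.00725).

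Dnajb9 (ENSMUSG00000014905), ERdj4, a BiP co-chaperone that binds IRE1α, was at 28.8, 35.6, 23.0 and 22.0 in the 22 °C controls and 42, 25.1, 25.1 and 29.6 in the knockouts, which overlapped. At 30 °C the controls were at 10.7, 15.6 and 15.98 and the knockouts at 17.7, 17.4 and 16.5, with no overlap. The changes, 0.14 (95% interval -0.26 to 0.55) and 0.29 (-0.18 to 0.75), did not pass the test. The average of 0.22 passed at equal totals over nuclear genes (0.38, limma adjusted p = 0.0462) and for FPKM as deposited (0.53, 0.00517).

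Sdf2l1 (ENSMUSG00000022769) encodes an ER protein that works with BiP and its HSP40 partners. It was at 1.93, 1.86, 1.504 and 2.92 in the 22 °C controls and 3.24, 5.51, 3.19 and 3.41 in the knockouts. The 30 °C values were 6.85, 5.56 and 8.09 in controls and 26.6, 13.7 and 24.8 in knockouts. The groups were separate at both temperatures, and the highest level was in the 30 °C knockouts. The change was 1.49 (SE 0.25, 2.82-fold) at 30 °C, with limma adjusted p = 0.00296, and 0.66 (SE 0.21, 1.58-fold) at 22 °C, with limma adjusted p = 0.153. Averaged over temperature it was 1.08 (SE 0.16), with limma adjusted p = 0.00119. The call at 30 °C and the averaged call held in all 15 and all 22 alternative fits, which include leaving out each animal.

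Pdia4 (ENSMUSG00000025823), ERp72, which forms disulfide bonds in the ER lumen, was at 16.4, 16.3, 14.4 and 13.0 in the 22 °C controls and 14.9, 22.0, 16.9 and 17.1 in the knockouts. The 30 °C values were 19.9, 19.0 and 23.9 in controls and 27.7, 23.5 and 23.2 in knockouts. The groups overlapped at both temperatures. The changes were 0.22 (95% interval -0.05 to 0.49) and 0.24 (-0.08 to 0.55), and the average, 0.23 (0.02 to 0.43), had a limma adjusted p of 0.126. It passed at equal totals over nuclear genes (0.39, adjusted p = 0.0146) and for FPKM as deposited (0.53, adjusted p = 0.000869).

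The 2 degradation genes differed in what they showed. Edem1 (ENSMUSG00000030104) encodes a mannosidase-like lectin that sends misfolded glycoproteins out of the folding cycle. It was at 14.9, 16.4, 13.5 and 9.37 in the 22 °C controls and 21.9, 26.5, 20.3 and 19.9 in the knockouts. At 30 °C it was at 9.35, 9.23 and 10.6 in controls and 16.5, 25 and 22.7 in knockouts. The groups did not overlap at either temperature. The change was 1.046 (SE 0.19, 2.07-fold) at 30 °C, with limma adjusted p = 0.00444. At 22 °C it was 0.69 (SE 0.16, 1.61-fold) and did not pass (limma adjusted p = 0.0558). Over 17 alternative fits the 22 °C change ran from 0.47 to 0.96 and passed in 3 (limma adjusted p 0.00335 to 0.183). The average of 0.87 (SE 0.13), with limma adjusted p = 0.000872, held in all 22 alternative fits.

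Herpud1 (ENSMUSG00000031770) encodes a membrane scaffold of the degradation complex and carries the ERSE-II and ATF4 letters printed above. It was at 63.8, 75.1, 60.1 and 66.0 in the 22 °C controls and 82.5, 84.3, 67.4 and 72.7 in the knockouts. At 30 °C it was at 51.2, 50.9 and 54.6 in controls and 41.5, 48.9 and 40.4 in knockouts. The knockouts thus lay to the high side with overlap at 22 °C and below all controls at 30 °C. Neither change passed, at 0.21 (95% interval -0.01 to 0.43) and -0.26 (-0.52 to -0.003), with limma adjusted p of 0.361 and 0.179. For FPKM as deposited the 30 °C change was 0.08.

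**Figure D3:**
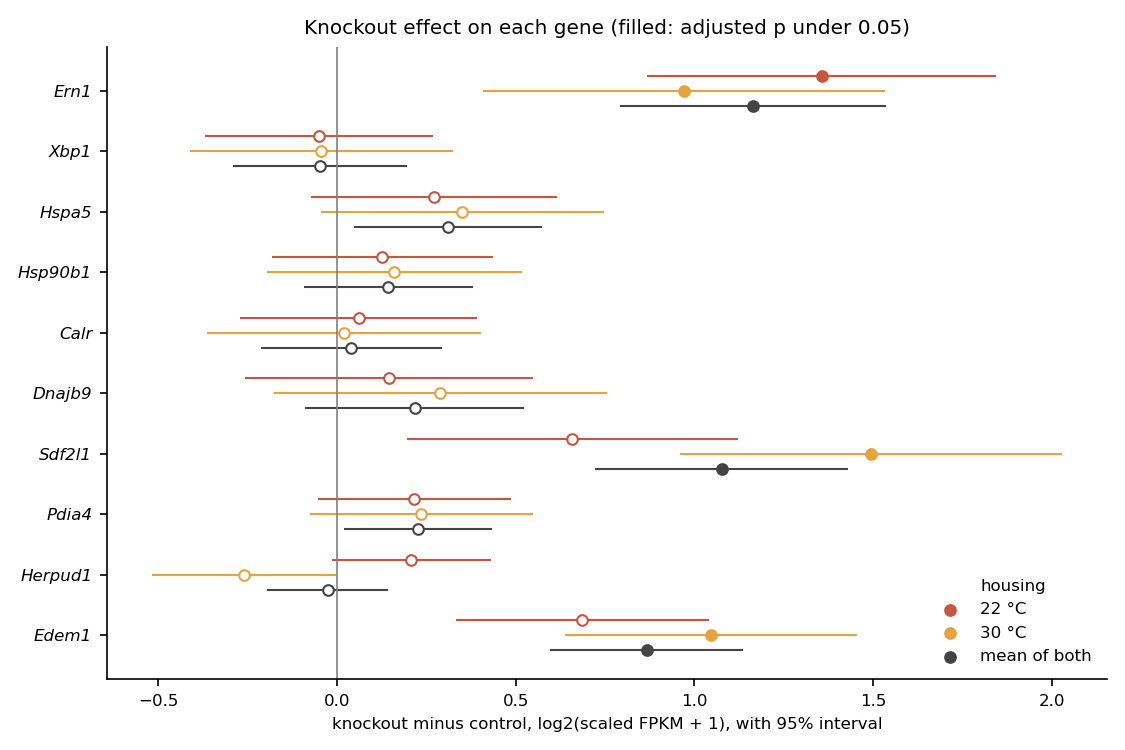
Knockout minus control for each gene on the log2(scaled FPKM + 1) scale (horizontal axis), at 22 °C, at 30 °C and averaged, with 95% intervals from limma; filled points have an adjusted p under 0.05. Ern1, Sdf2l1 and Edem1 stand to the right of 0 in all 3, and the intervals of Xbp1, Hsp90b1, Calr and Dnajb9 cover 0 throughout.

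Whether the knockout effect differed between the 22 °C and 30 °C cohorts was tested as an interaction, in which temperature cannot be told apart from the sex-linked split of the cohorts given below. None of the 10 genes passed, against 0% of all tested genes, and limma called 0 of 13079 genes with 1609 at an unadjusted p under 0.05. Among the 10 genes 2 had an unadjusted p under 0.05. The knockout effect of Sdf2l1 was smaller at 22 °C by -0.83 (95% interval -1.54 to -0.13) and that of Herpud1 larger by 0.47 (0.13 to 0.81), with limma adjusted p of 0.32 and 0.27. That Sdf2l1 and Edem1 passed at 30 °C and not at 22 °C is therefore no shown difference between the cohorts.

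The temperature cohorts differed in 5 of the 10 genes in controls (38.3% of all tested genes) and in 6 in knockouts (52.2% of all tested genes). Xbp1 was lower at 22 °C, by -0.78 (SE 0.16) in controls and -0.79 (SE 0.16) in knockouts. Sdf2l1 was lower by -1.37 (SE 0.23) and -2.20 (SE 0.23), and Pdia4 by -0.45 (SE 0.14) and -0.47 (SE 0.14). Dnajb9 was higher at 22 °C by 0.90 (SE 0.20) and 0.76 (SE 0.20), and Herpud1 by 0.33 (SE 0.11) and 0.80 (SE 0.11). The Herpud1 call in controls held in 8 of 16 alternatives; it was lost in 4 of 7 fits that left out 1 animal and, among other scalings, for FPKM as deposited (0.17, limma adjusted p = 0.307). The Pdia4 call in controls was lost without the 2 controls with R identifiers (-0.34, limma adjusted p = 0.0916) and without the third 30 °C control (-0.36, 0.0902). Ern1 was called among knockouts, at 0.65 (SE 0.24, limma adjusted p = 0.0392), and was at 0.26 (SE 0.24) in controls, a difference that is the interaction above and did not pass. It lost the call in 4 of 7 fits that left out 1 animal. The count in controls was 8 without 22 °C control replicate 4 and 3 without 30 °C control replicate 3. Genes of the same pathway thus stood on opposite sides: the transcription factor, a co-chaperone and a disulfide isomerase lower at 22 °C, another co-chaperone and, with the limit just given, a degradation scaffold higher. The cohorts also differed in cell type markers. All 6 tested plasma cell markers were called lower at 22 °C, in controls and in knockouts. In controls their sums were 19.0 to 40.7 at 22 °C and 236 to 887 at 30 °C. In knockouts they were 28.7 to 116 and 155 to 774. Of 10 macrophage markers 6 were lower at 22 °C in controls and 9 in knockouts. The part of these cells in the temperature differences was not tested. Sex-linked transcripts differed as well. Ddx3y was at 16.4 to 24.96 in all 8 animals at 22 °C and at most 0.0236 in the 6 at 30 °C, and Xist was at most 0.0137 at 22 °C and 9.55 to 14.7 at 30 °C. No sex is stated in the labels, so in these comparisons and in the interaction temperature cannot be told apart from sex-linked differences. The knockout comparisons within a temperature are not touched by this split.

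Other ER genes were read against the same backgrounds of 1.71% at 22 °C, 13% at 30 °C and 17.2% in the average. Of 21 other folding genes none was called at 22 °C by limma (3 at an unadjusted p under 0.05), and at 30 °C 2 rose and 1 fell, with medians of 0.04 and 0.18. Ero1l (Ero1a), the oxidase that recharges disulfide isomerases, was at 4.202 to 7.08 in controls and 7.49 to 21.5 in knockouts at 22 °C, and at 2.82 to 3.69 and 5.69 to 20.8 at 30 °C, a change of 1.23 (SE 0.35, limma adjusted p = 0.104) and 1.43 (SE 0.41, adjusted p = 0.0342). Manf, a secreted ER stress factor, rose by 0.69 (SE 0.20) at 30 °C. Erp44, which retains client proteins of the early secretory pathway, fell by 0.50 (SE 0.15) there.

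Of 14 other degradation genes none was called by limma at 22 °C (4 at an unadjusted p under 0.05) or at 30 °C (2 at an unadjusted p under 0.05). Averaged over temperature 2 rose, Sel1l by 0.39 (SE 0.10) and Derl1 by 0.37 (SE 0.10), both parts of the retrotranslocation complex. Of 14 translocation genes none was called at 22 °C (2 at an unadjusted p under 0.05 in limma), and 1 rose at 30 °C, the signal peptidase subunit Spcs3, by 0.43 (SE 0.13). The channel subunit Sec61g fell by 0.24 (SE 0.07) in the average. The medians of both lists lay between -0.05 and 0.13.

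Among 11 other stress sensors and their processing enzymes 1 rose at 22 °C, 3 at 30 °C and 5 in the average, and none fell, beside those same backgrounds. Atf6, the second ER sensor, was at 11.1, 10.2, 7.23 and 4.83 in the 22 °C controls and 23.7, 17.1, 12.4 and 14.8 in the knockouts, and at 5.45 to 6.43 and 7.52 to 12.1 at 30 °C. Its ranges were separate at both temperatures, with changes of 0.97 (SE 0.23, limma adjusted p = 0.0558) and 0.61 (SE 0.27, adjusted p = 0.162) and an average of 0.79 (SE 0.18, adjusted p = 0.00951). At 30 °C Wfs1, a membrane protein that restrains ATF6, rose by 1.07 (SE 0.24), Creb3l1, a membrane-bound factor that acts on collagen secretion, by 1.13 (SE 0.13) and Atf6b by 0.53 (SE 0.14). The gene called at 22 °C was Traf2, an adaptor that binds IRE1α, at 0.49 (SE 0.10, limma adjusted p = 0.0297); it falls outside the naming rule and was picked after its values were seen. Eif2ak3, which encodes PERK, the ER sensor that phosphorylates eIF2α, was at 0.26 (SE 0.16) and 0.15 (SE 0.18). None of 6 eIF2α kinase and mitochondrial relay genes, Eif2ak3 among them, was called. In those 6, limma gave 1 unadjusted p under 0.05 at 22 °C and 0 at 30 °C.

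**Figure D4:**
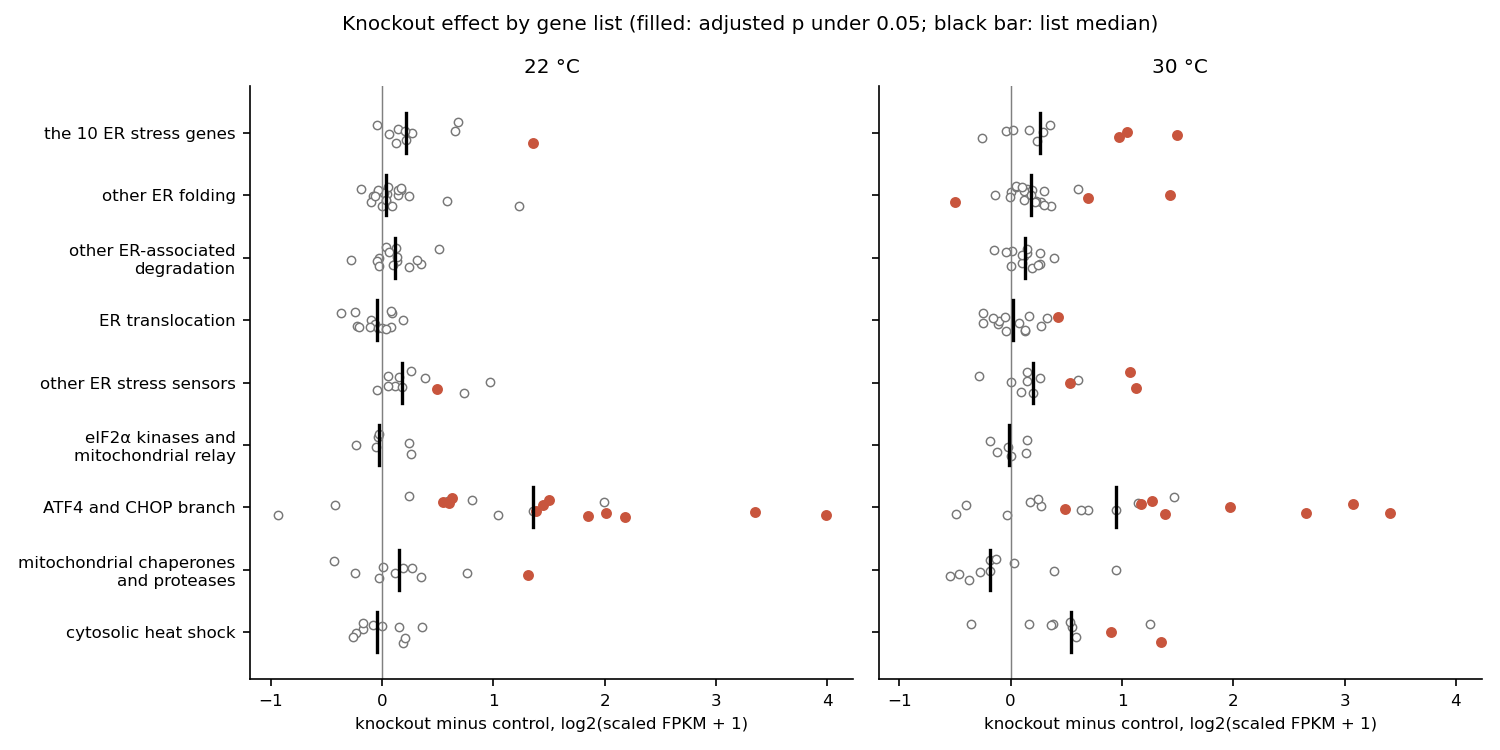
Knockout minus control at 22 °C (left) and 30 °C (right) on the log2(scaled FPKM + 1) scale (horizontal axis) for every tested gene of each list (rows); filled points have an adjusted p under 0.05 and black bars are list medians. The ATF4 and CHOP list has medians of 1.36 and 0.95 with genes on both sides of 0, and the medians of the other ER lists are 0.20 or less.

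Of 19 tested genes of the ATF4 and CHOP branch 11 rose at 22 °C, 8 at 30 °C and 14 in the average. None fell, beside backgrounds of 1.71%, 13% and 17.2% of all tested genes. The list medians were 1.36, 0.95 and 1.04. Trib3, a pseudokinase induced by ATF4 and CHOP, was at 4.06 to 5.85 in controls and 39.2 to 163 in knockouts at 22 °C, and at 7.25 to 11.04 and 75.1 to 131 at 30 °C. Mthfd2, a mitochondrial folate enzyme, changed by 3.35 (SE 0.23) and 2.65 (SE 0.26), and Atf5 by 2.01 (SE 0.25) and 1.97 (SE 0.29). Atf3 changed by 1.99 (SE 0.61, limma adjusted p = 0.128) and 3.08 (SE 0.70, adjusted p = 0.0129). Ddit3, which encodes CHOP and was picked after its values were seen, changed by 2.19 (SE 0.26) and 1.17 (SE 0.30). Other genes of the list did not pass at 30 °C. Ppp1r15a was at 1.47 there, Cebpb at 1.15, Slc3a2 at 0.95, Atf4 itself at 0.69 and Phgdh at 0.63. Asns was at 0.25, Chac1 at 0.27, Cebpg at 0.17, Shmt2 at -0.03, Vldlr at -0.49 and Ddit4 at -0.40. Of these, Ppp1r15a, Slc3a2, Atf4, Phgdh, Cebpg and Shmt2 passed at 22 °C, with Atf4 at 1.38 (SE 0.24, limma adjusted p = 0.0133). At 30 °C the list ran from -0.49 (Vldlr) to 3.41 (Trib3) with a median of 0.95. That Hspa5, at 0.35, falls in so wide a range does not show that it behaved like the list. The list was known from earlier results to rise here, and these other genes were named after their values were seen.

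Within the 22 °C knockouts Ern1 and Trib3 were high in the same animals. Replicates 1 and 2 had Ern1 at 13.5 and 14.2 and Trib3 at 158 and 163, and replicates 3 and 4 had Ern1 at 5.59 and 6.92 and Trib3 at 63.9 and 39.2. Ddit3 was at 250.3 and 189.8 against 106 and 90.0 in the same order, and Ero1l at 21.2 and 21.5 against 7.49 and 11.8. Herpud1, at 82.5 and 84.3 against 67.4 and 72.7, and Edem1, at 21.9 and 26.5 against 20.3 and 19.9, followed this split. So did Atf6, at 23.7 and 17.1 against 12.4 and 14.8, and Wfs1, at 13.9 and 13.7 against 7.83 and 9.83. Hspa5 did not follow it, at 164.9 and 147 against 149.7 and 164.9, nor did Hsp90b1, Xbp1, Dnajb9, Sdf2l1, Pdia4 or Calr. The 30 °C knockouts did not show this order: Ern1 was highest in replicate 2 (4.89, 6.81 and 5.25) and Trib3 in replicate 3 (75.1, 111 and 131). These comparisons within a group were made after the values were seen and have no test.

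**Figure D5:**
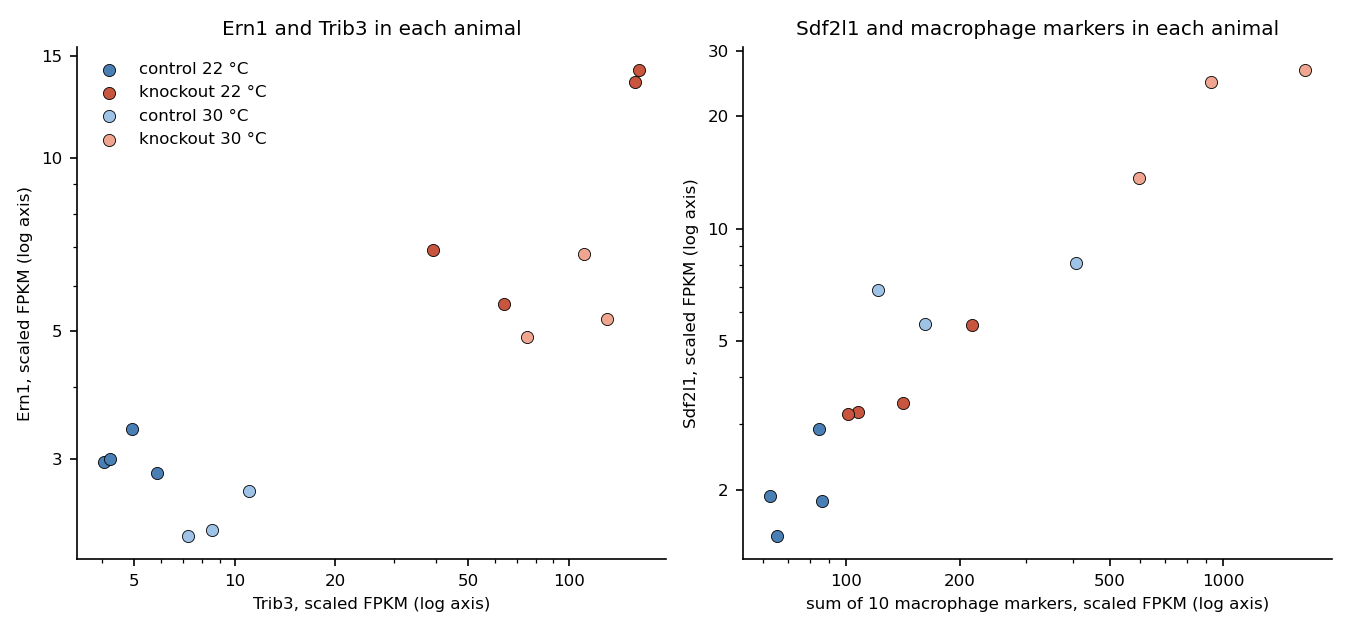
Left, Ern1 against Trib3, and right, Sdf2l1 against the sum of 10 macrophage markers, in scaled FPKM on log axes; each point is an animal, coloured by group as in the left key. The pair of 22 °C knockouts with the highest Trib3 (158 and 163) have the highest Ern1 (13.5 and 14.2), and the 30 °C knockouts have the highest macrophage sums (597 to 1649) and the highest Sdf2l1 (13.7 to 26.6).

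Markers of other cell types moved with the knockout at 30 °C. Calls here and in the next paragraph stand beside 1.71% of all tested genes at 22 °C and 13% at 30 °C. Macrophage markers, 10 genes, summed to 121, 162 and 405 in the 30 °C controls and to 1649, 597 and 925 in the 30 °C knockouts, and 9 of 10 rose, all but Cd14. The 22 °C sums were 62.7 to 86.2 in controls and 101 to 216 in knockouts, with 0 of 10 called and 5 at an unadjusted p under 0.05 in limma. In the 30 °C knockouts Sdf2l1 stood in the same order as those sums, at 26.6, 13.7 and 24.8, and so did the fibroblast sums, at 890.1, 457 and 562. The 22 °C knockout with 5.51 had the highest macrophage sum of its group, 216. The order did not hold within the controls, where the 30 °C sums went with Sdf2l1 at 6.85, 5.56 and 8.09, and the 22 °C sums of 62.7, 86.2, 65.6 and 84.8 with 1.93, 1.86, 1.504 and 2.92. Edem1 stood in the reverse order of the sums in the 30 °C knockouts, at 16.5, 25 and 22.7, and so did Ern1, at 4.89, 6.81 and 5.25. The part of macrophages and fibroblasts in the Sdf2l1, Edem1 and Ern1 results was not tested.

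Fibroblast markers summed to 237 to 283 in the 30 °C controls and 457 to 890.1 in the knockouts, with 6 of 6 called higher. At 22 °C the sums were 172 to 230.4 and 159 to 309, with 0 of 6 called and 0 at an unadjusted p under 0.05 in limma. Plasma cells, known for a high load of secreted protein and high Xbp1, had 6 tested markers, of which 0 were called at 22 °C and 1 rose at 30 °C, Sdc1, while the sums overlapped at 236 to 887 in 30 °C controls and 155 to 774 in knockouts. Of 10 genes listed as brown adipocyte markers 1 rose (Ppargc1a) and 1 fell (Adipoq) at 22 °C. At 30 °C 5 fell (Ucp1, Cidea, Cox8b, Adipoq and Fabp4), with Adipoq down by 1.29 (SE 0.17) and Cox8b by 1.36 (SE 0.19). Adipoq, Fabp4, Plin1 and Pparg of this list are general adipocyte genes, so their changes are not specific to brown adipocytes. Ppargc1a and Cidea were named after their values were seen. White adipocyte markers (4 genes) and endothelial markers (5 genes) had no gene called by limma at either temperature, with 1 white adipocyte gene and 0 endothelial genes at an unadjusted p under 0.05 at 30 °C and 0 of either at 22 °C. The muscle gene Tnnc2 was listed at 0 in all 4 of the 22 °C knockouts, and no other marker was at 0 in every animal of a group. Summed muscle markers ran from 21.2 to 12560 across the 30 °C controls and none of 7 was called in either comparison, with 0 at an unadjusted p under 0.05. The part of fibroblasts, plasma cells, adipocytes and muscle in the results was not tested.

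Chaperones of other compartments were set beside the ER genes, with backgrounds of 1.71% at 22 °C, 13% at 30 °C and 17.2% in the average. Among 10 mitochondrial chaperones and proteases the protease Lonp1 rose by 1.32 (SE 0.27) at 22 °C, and no gene was called at 30 °C (3 at an unadjusted p under 0.05 in limma). Averaged over temperature Lonp1 and Hspa9, the mitochondrial relative of BiP, rose by 1.13 (SE 0.21) and 0.58 (SE 0.17), and Hspe1 fell by 0.40 (SE 0.12). Among 10 cytosolic heat shock genes 0 were called at 22 °C, with 0 at an unadjusted p under 0.05 in limma, and 2 rose at 30 °C, Hspa1b by 1.35 (SE 0.41) and Hsp90aa1 by 0.90 (SE 0.27).

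The ERSE letters were also followed over all promoters, beside backgrounds of 1.71% at 22 °C, 13% at 30 °C and 17.2% in the average. Of 17 tested genes with an ERSE, which include Hspa5, Hsp90b1 and Calr, none was called by limma at 22 °C (1 at an unadjusted p under 0.05) and 1 fell at 30 °C, Acacb, with medians of 0.06 and 0.10. Of 15 tested genes with the longer ATF4 form 4 rose at 22 °C (Aars, Fgf21, Nupr1 and Pycr1), and at 30 °C 3 were higher and 2 lower, with medians of 0.24 and 0.01. Of 74 genes with the shorter ATF4 form 5 were higher and 1 lower at 22 °C, and 9 higher and 3 lower at 30 °C, with medians of 0.10 and 0.08. Of 101 genes with the unfolded protein response core 1 was higher (Ppargc1a) and 1 lower (Pigp) at 22 °C, 8 were higher and 2 lower at 30 °C, and 11 higher and 4 lower in the average, with medians between 0.05 and 0.07. At 30 °C and in the average these are smaller shares than among all genes. Of 8 genes with an ERSE-II none was called by limma at 22 °C (1 at an unadjusted p under 0.05). At 30 °C 1 of them rose, Krtcap2. These named genes were chosen by their calls after values were seen, and Nupr1 is also on the ATF4 list.

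The 10 genes were also compared with each other within groups, over 14 animals after subtraction of group means. Of 45 pairs none had a Benjamini-Hochberg adjusted permutation p under 0.05, and 7 had an unadjusted one under 0.05. The highest Pearson r was between Hspa5 and Calr, at 0.83 (Spearman 0.82), with a permutation p of 0.00932 and an adjusted p of 0.105. It was 0.71 without the 2 animals farthest from the median and 0.63 without the controls with R identifiers. Ern1 and Herpud1 had r = 0.77 (Spearman 0.76), with a permutation p of 0.00585 and an adjusted p of 0.105, and 0.65 and 0.82 in the same repeats. Ern1 and Hspa5 had r = -0.04. The genes whose deviations were most like the mean of the 10 were St6gal1 (r = 0.93), Zcchc24 (0.90), Wdr1 (0.89), Scpep1 (0.88) and Fbxl8 (0.88), over the same 14 samples and as a description only.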

How the data were processed

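RNA-seq was done on brown adipose tissue of 14 mice. The authors deposited gene values as FPKM, 1 column per animal, per the file headers. The genome build was mm9, per the submitters' processing notes, and the aligner, counter, annotation and use of strand are not given in the sources used here. Replicates are separate animals with no pairing in the labels. Symbols came from GENCODE M21 (34490 of 35275 genes matched) and promoters from RefSeq, GRCm38.p6, another build than the files'. Library depth was recovered from low values of genes with 1 transcript, of which 90.7% to 92.6% were whole reads within 0.05. All intervals and read numbers cover only the spread between these animals or counting error.

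FPKM were scaled by the median ratio to the geometric mean over 15342 nuclear genes above 0 in every library. The test was limma 3.58.1 in R 4.3.3, with a variance trend in eBayes, on log2(scaled FPKM + 1), a mean per group, for 13079 genes of at least 1 FPKM in at least 3 of 14 animals, with Benjamini-Hochberg adjustment and a threshold of 0.05. Tables were made with Python 3.11.15. On simulated data for the averaged comparison, 96% of genes with a log2 change of 1 were recovered. The share was 69% at 22 °C and 57% at 30 °C, out of 100 changed genes of that size among 11939. The simulation gave every gene the same length and the same relative spread between animals. It left out scarce genes and the split by R identifiers, so recovery in the real data can be lower.

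The members and lists were chosen with earlier results of these data known. Genes named from a list are those called in a knockout comparison, at most the 4 with the greatest averaged change, and the 5 genes most like the members, with Lrpprc. Alternatives covered scaling, the pseudocount (0.1), the filter, the variance model, the samples in the fit and leaving out animals; scaling on nuclear genes of at least 1 FPKM in every library was added after the data were seen. A planned grouping by retention signal at the protein's end was not run, since no protein sequences were used here.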

Additional observations from a re-analysis of the deposited data

Results flagged for a closer look

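Both values here are single animals that stood far from the other 3 of their group, with a gap to the nearest animal, as a share of the group's range, above Dixon's 95% critical value. Xbp1 was at 43.93 in 22 °C control replicate 3, an animal with an R identifier, and at 29.7 to 30.8 in the other controls, a gap of 0.919 of the range. Without that animal the 22 °C knockout change of Xbp1 was 0.08 in place of -0.05. Sdf2l1 was at 5.509 in 22 °C knockout replicate 2 and at 3.19 to 3.41 in the other knockouts, a gap of 0.903. That animal also had the highest summed macrophage markers of its group, 216, and its part in the value was not tested. In all, 20 groups of 4 animals were examined, and chance flags about 1 in 20.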

How the results depend on the processing

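Of 860 values of single genes under alternatives, 755 kept their direction and side of the threshold, 31 gained a call, 29 lost one and 45 changed sign. Of 108 counts 99 stayed within 1.5 times, a rule under which a fall from 3 to 2 counts as unchanged. These 108 include the interaction counts, which were 0 in the main fit and in every alternative and say nothing on stability. The calls of Ern1, Sdf2l1 and Edem1 in the average held in all 22 alternatives. The count of ER stress genes called at 22 °C was 1 and became 7 for FPKM as deposited, 2 at equal totals over nuclear genes, 2 with scaling on nuclear genes of at least 1 FPKM and 0 with only the compared groups in the fit. At 30 °C it was 3 and was 2 in all 6 fits that left out 1 animal. Over 9 other alternatives it ran from 2 to 7, with 7 for FPKM as deposited. In the average it was 3 and became 9 for FPKM as deposited and 7 at equal totals. These scalings shift all genes, as given beside the counts. Leaving out 1 animal, the count between temperatures in controls, 5, ran from 3 to 8. Most values that changed sign were within 0.1 of 0 in the main fit, but not all. There Herpud1 was at -0.26 (30 °C), Hspa5 at 0.27 (22 °C) and Dnajb9 at 0.14 (22 °C). Hsp90b1 was at 0.13 (22 °C) and 0.14 (average). Between temperatures, Hsp90b1 was at 0.21 and Hspa5 at 0.19 in knockouts, and Calr at -0.18 in controls. For FPKM as deposited Xbp1 was at 0.2348 (22 °C), 0.302 (30 °C) and 0.2684 (average), Herpud1 at 0.08433 (30 °C) and 0.2908 (average), and, between temperatures in knockouts, Hspa5 at -0.0337, Hsp90b1 at -0.00582 and Edem1 at -0.157. After quantile normalization Xbp1 was at 0.01303 (30 °C) and Herpud1 at 0.01416 (average). At equal totals Xbp1 was at 0.08079, 0.1603 and 0.1205, Herpud1 at 0.1418 (average) and Edem1 between temperatures in knockouts at -0.09023. With scaling on nuclear genes of at least 1 FPKM the last was -0.06049 and Xbp1 at 30 °C was 0.006961. Without the 2 controls with R identifiers the 22 °C changes were -0.00199 (Hspa5), -0.1709 (Hsp90b1), 0.07515 (Xbp1), -0.1028 (Dnajb9) and -0.2016 (Calr), the averages -0.008879 (Hsp90b1), 0.0121 (Xbp1) and -0.09419 (Calr), and Calr between temperatures in controls 0.07986. The cause was not tested. Leaving out 1 animal gave, at 22 °C, Xbp1 -0.1007 to 0.08083, Dnajb9 -0.01403 to 0.2775 and Calr -0.05827 to 0.1614; at 30 °C, Xbp1 -0.1188 to 0.08353 and Calr -0.09247 to 0.1796; in the average, Xbp1 -0.08496 to 0.01694, Herpud1 -0.06738 to 0.004177 and Calr -0.01994 to 0.1193; and Edem1 between temperatures in knockouts -0.1121 to 0.1725. No paired analysis was possible because the labels do not pair the animals. The labels also give no replicate numbers, and those used here follow the order of the samples within each group.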
